A study of Mus musculus with 9 samples.

Results

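The clustered Hox genes are the 39 mouse homeobox genes named Hoxa, Hoxb, Hoxc or Hoxd followed by a paralogue number, and they were taken as every gene with such a symbol in either deposited gene table. All 39 were on both array platforms, where 53 of 25697 probes and 53 of 46643 probes measured them. They lie in 4 clusters, with 11 genes in HoxA on chromosome 6, 10 in HoxB on chromosome 11, 9 in HoxC on chromosome 15 and 9 in HoxD on chromosome 2.

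RNA of mouse embryonic stem (ES) cells was hybridised to 9 single-colour Illumina beadchips, in a study of Wdr5 and the ES cell transcription network. In Aniv15 cells, which express the reverse tetracycline transactivator, 2 luciferase control arrays (LucR, with doxycycline) stood against 3 arrays of the rescue clone Wdr5R4 without doxycycline, which carries a short hairpin RNA (shRNA) and is labelled as Wdr5 knocked down. In CCE or E14T cells, with no line given per sample, 2 arrays with an shRNA against Oct4 stood against 2 arrays with an shRNA against GFP. All cells shared a mouse embryonic fibroblast feeder layer, serum and LIF. The growth description lists doxycycline for every sample, so its absence in Wdr5R4 rests on the sample labels. Wdr5R4 is 1 clone, and clone, shRNA and doxycycline cannot be told apart between its arrays and the luciferase arrays. No label says that replicates came from separate cultures, so p-values measure only the spread between these arrays, whose small number limits the precision. In bulk RNA, fewer cells of a type and less RNA per cell cannot be told apart.

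Hox genes encode homeodomain transcription factors that give cells their position along the head to tail axis, and their order in a cluster follows the order of their expression in the embryo. Low paralogue numbers act in the hindbrain and neck, and high numbers act in the lower trunk, limbs and genital tract. In undifferentiated ES cells the clusters are largely held silent by Polycomb complexes, while Trithorax complexes, in which Wdr5 is a subunit, place the histone H3 lysine 4 methylation found at active Hox genes. Fibroblasts from the embryo keep Hox expression that reflects where they came from.

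The targeted genes moved as labelled. Wdr5 fell in the Wdr5 knockdown, with a log2 fold change of -0.96 ± 0.07 (SE, n = 2 and 3, limma adjusted p = 0.000121), from intensities of 988 and 1097 on the luciferase arrays to 464, 459 and 427. Pou5f1, the gene of Oct4, fell in the Oct4 knockdown, with a log2 fold change of -2.28 ± 0.15 (n = 2 and 2, limma adjusted p = 0.000685), from intensities of 4609 and 4136.5 to 297 and 305. Wdr5 was also lower in the Oct4 knockdown (-0.81 ± 0.15, limma adjusted p = 0.0108). The Oct4 knockdown arrays had lower mean intensities, at 110.3 and 110.7 over all probes against 344 and 278 on the GFP arrays. Their median intensities were higher, at 0.5 and 1.9 against -2 and -13. Normalized values there are thus relative to the other genes of the same array. Feeder fibroblast and ES cell markers also differed between the groups, and their values stand beside each set of Hox results.

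Between 17 and 20 of the 39 Hox genes were above background on each array of the Wdr5 set, taken as a detection score above 0.95 for at least 1 probe. The luciferase arrays detected 20 genes each, and the 3 Wdr5 knockdown arrays detected 19, 17 and 18. The Oct4 set detected fewer, with 9 and 6 genes on the GFP arrays and 12 on each Oct4 knockdown array. At a detection score above 0.99 the counts were 15 to 17 per array in the Wdr5 set, 3 and 2 on the GFP arrays, and 7 and 9 after Oct4 knockdown. Of all probes, 22.9% and 19.3% were above background on the GFP arrays, against 22.1% and 25.3% on the Oct4 knockdown arrays. The intensity needed to pass was higher on the GFP arrays. Hoxa3 at 137.3 on GFP replicate 2 did not pass, whereas a Hoxc8 probe at 30.1 on Oct4 knockdown replicate 2 did. The platforms differ in their probes, so these counts are not comparable between sets, and within the Oct4 set they also depend on this difference in background. In the Wdr5 set 15 Hox genes were above background on no array, namely Hoxa3, Hoxa6, Hoxa10, Hoxa11, Hoxb1, Hoxb3, Hoxb8, Hoxb13, Hoxc5, Hoxc8, Hoxc11, Hoxc12, Hoxd11, Hoxd12 and Hoxd13, and their 22 probes did not exceed an intensity of 15.5. A further 3 genes, Hoxa4, Hoxb6 and Hoxd1, were above background on 1 array. In the Oct4 set 26 genes were above background on no array, and Hoxb7 was above it on 1 array. For these genes the arrays give no measured difference.

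A gene was tested where a probe was above background on at least 2 arrays of the set. This left 21 Hox genes among 10119 genes in the Wdr5 comparison and 12 among 9276 in the Oct4 comparison. A set of 10 Hox genes was tested in both, 11 in the Wdr5 comparison alone, Hoxa3 and Hoxc8 in the Oct4 comparison alone, and 16 in neither. The map of the clusters shows which genes these were and in which direction they differed.

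**Figure D1:**
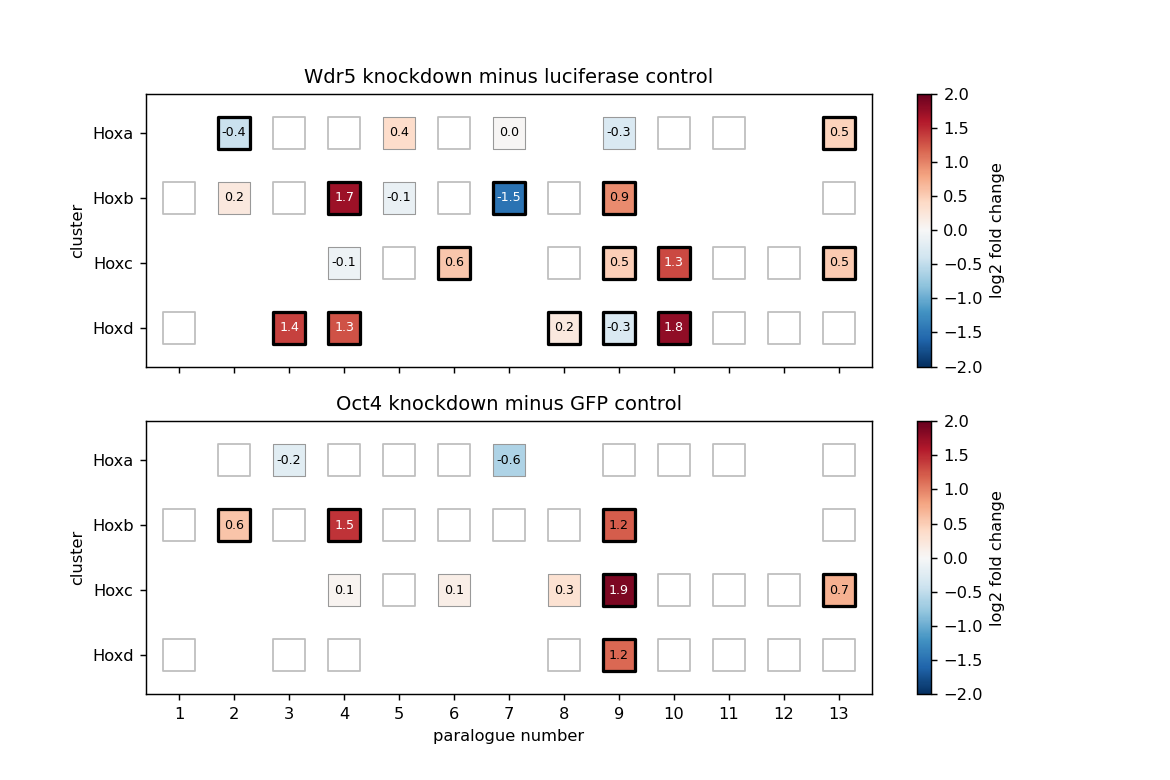
Map of 38 of the 39 clustered Hox genes by cluster (rows) and paralogue number (columns), for the Wdr5 comparison (top) and the Oct4 comparison (bottom). Colour and number give the log2 fold change of knockdown over control, a heavy frame marks an adjusted p under 0.05, and empty squares are genes not tested. Of the genes drawn, 11 framed genes were higher and 3 lower in the Wdr5 comparison, and in the Oct4 comparison 6 framed genes were higher.

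In the Wdr5 knockdown 12 of the 21 tested Hox genes rose and 3 fell, while 6 did not pass the test (limma, Benjamini-Hochberg adjusted p under 0.05 over all genes). Change was common on these arrays, where 68.7% of all tested genes were called, 38.2% higher and 30.5% lower. The median log2 fold change was 0.45 over the tested Hox genes and 0.10 over all tested genes. A gene detected in 1 group alone could enter the test only because that group was high, and with no filter the median over all 39 Hox genes was 0.03, as it was over all 17913 genes. The largest rises were in HoxD, HoxB and HoxC: Hoxd10 rose 3.41-fold, Hoxb4 3.27-fold, Hoxd3 2.58-fold, Hoxc10 2.50-fold and Hoxd4 2.41-fold. Hoxb7 fell, and was at least 2.32-fold lower.

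By cluster, 4 of the 5 tested HoxC genes and 4 of the 5 tested HoxD genes rose, against 2 of 6 in HoxA and 2 of 5 in HoxB. The single falling genes were Hoxa2 in HoxA, Hoxb7 in HoxB and Hoxd9 in HoxD. By paralogue number, 2 of 4 tested genes of numbers 1 to 3 rose, 4 of 9 of numbers 4 to 8, and 6 of 8 of numbers 9 to 13, with 1 falling gene in each class. The median log2 fold changes of the 3 classes were 0.51, 0.22 and 0.51, so the differences did not rank by position. These counts are descriptions, since the genes share their arrays and are not replicates.

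Hoxd10, a gene of the lumbar spinal cord and the limb, had log2 values of 7.66 and 7.67 on the luciferase arrays, against 9.41, 9.43 and 9.48 on the Wdr5 knockdown arrays. Its intensities went from 199.8 and 239 to 669.9, 623 and 604, so the groups were also apart before normalization. The log2 fold change was 1.77 ± 0.07 (limma adjusted p = 1.68e-05). Hoxd4, which patterns the neck vertebrae and hindbrain, had log2 values of 7.38 and 7.21 against 8.53, 8.50 and 8.65, a log2 fold change of 1.27 ± 0.09 (limma adjusted p = 8.55e-05). Hoxd3, which shapes the first neck vertebrae, had 5.11 and 5.24 against 6.64, 6.43 and 6.55, a log2 fold change of 1.37 ± 0.09 (limma adjusted p = 7.68e-05). All 3 genes were above background on every array, and no knockdown array reached down to a luciferase array.

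The other HoxD genes tested moved less and not in the same direction. Hoxd8, a trunk gene, had log2 values of 8.46 and 8.51 on the luciferase arrays, against 8.72, 8.69 and 8.69 on the knockdown arrays, a rise of 0.22 ± 0.07 (limma adjusted p = 0.0275). Its intensities overlapped between the groups, at 351 and 426.5 against 407, 359 and 339. Hoxd9, which acts in the forelimb and the lower spinal cord, had log2 values of 8.42 and 8.44 against 8.13, 8.17 and 8.10 and fell by 0.30 ± 0.07 (limma adjusted p = 0.00832). It lies next to Hoxd10 on chromosome 2 and was above background on every array, with intensities of 342 and 406 on the luciferase arrays, against 256, 240.0 and 216 on the knockdown arrays, all below the controls. Hoxd9 and Hoxd10 therefore differed in opposite directions on the same arrays.

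The sequences upstream of Hoxd10, Hoxd9 and Hoxd4 are shown because these HoxD genes differed in direction and size. Hoxd10 and Hoxd9 lie side by side, and Hoxb4 was added because it rose in both knockdowns. Each line gives the 250 bases before the start site listed by RefSeq, on the plus strand of build GRCm38.p6, with every CpG dinucleotide in capitals. The windows are chr2:74691641-74691890 for Hoxd10, chr2:74697513-74697762 for Hoxd9, chr2:74721728-74721977 for Hoxd4 and chr11:96318017-96318266 for Hoxb4.
Hoxd10: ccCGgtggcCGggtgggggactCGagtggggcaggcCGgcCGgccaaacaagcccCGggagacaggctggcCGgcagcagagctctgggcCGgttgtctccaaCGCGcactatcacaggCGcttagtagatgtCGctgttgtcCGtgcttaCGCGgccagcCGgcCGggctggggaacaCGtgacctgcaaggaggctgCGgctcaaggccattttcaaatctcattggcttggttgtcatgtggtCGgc
Hoxd9: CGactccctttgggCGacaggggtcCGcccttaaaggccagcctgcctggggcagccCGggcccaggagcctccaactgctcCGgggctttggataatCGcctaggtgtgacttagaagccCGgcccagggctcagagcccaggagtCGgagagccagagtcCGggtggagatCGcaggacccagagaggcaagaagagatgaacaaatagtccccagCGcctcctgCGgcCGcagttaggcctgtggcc
Hoxd4: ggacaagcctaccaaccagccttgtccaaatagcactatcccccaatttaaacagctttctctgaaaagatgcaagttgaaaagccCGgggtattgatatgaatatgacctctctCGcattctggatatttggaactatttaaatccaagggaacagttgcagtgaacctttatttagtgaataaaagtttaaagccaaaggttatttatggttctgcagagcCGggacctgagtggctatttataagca
Hoxb4: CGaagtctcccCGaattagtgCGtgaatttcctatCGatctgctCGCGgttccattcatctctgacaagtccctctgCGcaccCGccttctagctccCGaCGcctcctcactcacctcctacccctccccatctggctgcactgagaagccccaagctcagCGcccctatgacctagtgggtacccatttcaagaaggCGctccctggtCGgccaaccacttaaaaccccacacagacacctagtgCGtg
These windows hold 20 CpGs for Hoxd10, 13 for Hoxd9, 3 for Hoxd4 and 14 for Hoxb4. The rising genes Hoxd10 and Hoxd4 thus stand at the 82.1 and 29.0 percentiles of CpG count among all 32851 RefSeq promoter windows, and the falling Hoxd9 stands between them at 68.5. RefSeq held 24 such windows for 22 of the 39 Hox genes. Their median CpG count was 12.5, with a range of 2 to 35, against 6 over all windows, and 19 of the 24 lay above that median, as did 46.3% of all windows. Their median GC content was 58.6% against 52.4% over all windows. In the Wdr5 comparison the windows of rising genes held a median of 13 CpGs (6 windows, 3 to 35), those of falling genes 9.5 (2 windows), those of tested genes without a call 7.5 (4 windows, 3 to 28) and those of untested genes 15.5 (12 windows, 2 to 31). The ranges of these classes overlap.

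Motifs were searched on both strands of the same windows. The octamer ATGCAAAT, the sequence that Oct4 and other POU factors recognise, was in 0 of the 24 Hox windows and in 1.60% of all windows. Of the Pbx and Hox sites, TGATTGAT was in 2 Hox windows, those of Hoxa2 and Hoxd11, and in 0.670% of all windows, while TGATTTAT was in 0 of 24 and in 0.837% of all windows. The direct repeat of AGGTCA with 5 bases between, a site of retinoic acid receptors, was in 0 of 24 Hox windows and in 0.00913% of all windows. A match or its absence describes only the letters in these windows.

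In HoxB, Hoxb4, a gene known for its effect on blood stem cells, had log2 values of 5.46 and 4.91 on the luciferase arrays, against 6.83, 7.05 and 6.79 on the Wdr5 knockdown arrays. The log2 fold change was 1.71 ± 0.18 (limma adjusted p = 0.000364), and the gene was above background on 1 of the 2 luciferase arrays and on all 3 knockdown arrays. Hoxb9, a gene of the thoracic region, had 4.76 and 4.68 against 5.75, 5.69 and 5.54. It was not above background on either luciferase array, so its difference is a bound: it was at least 1.54-fold higher in the knockdown (limma adjusted p = 0.000241). Hoxb7, a gene of the trunk, had 6.18 and 6.53 on the luciferase arrays, against 4.81, 4.96 and 4.86 on the knockdown arrays, none of which was above background. It was at least 2.32-fold lower (limma adjusted p = 0.000147), and its intensities went from 65.1 and 104 to 8.7, 11.8 and 9.1. Hoxb2, which acts in hindbrain segments, and Hoxb5 did not pass the test, with log2 fold changes of 0.21 ± 0.25 and -0.15 ± 0.12.

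**Figure D2:**
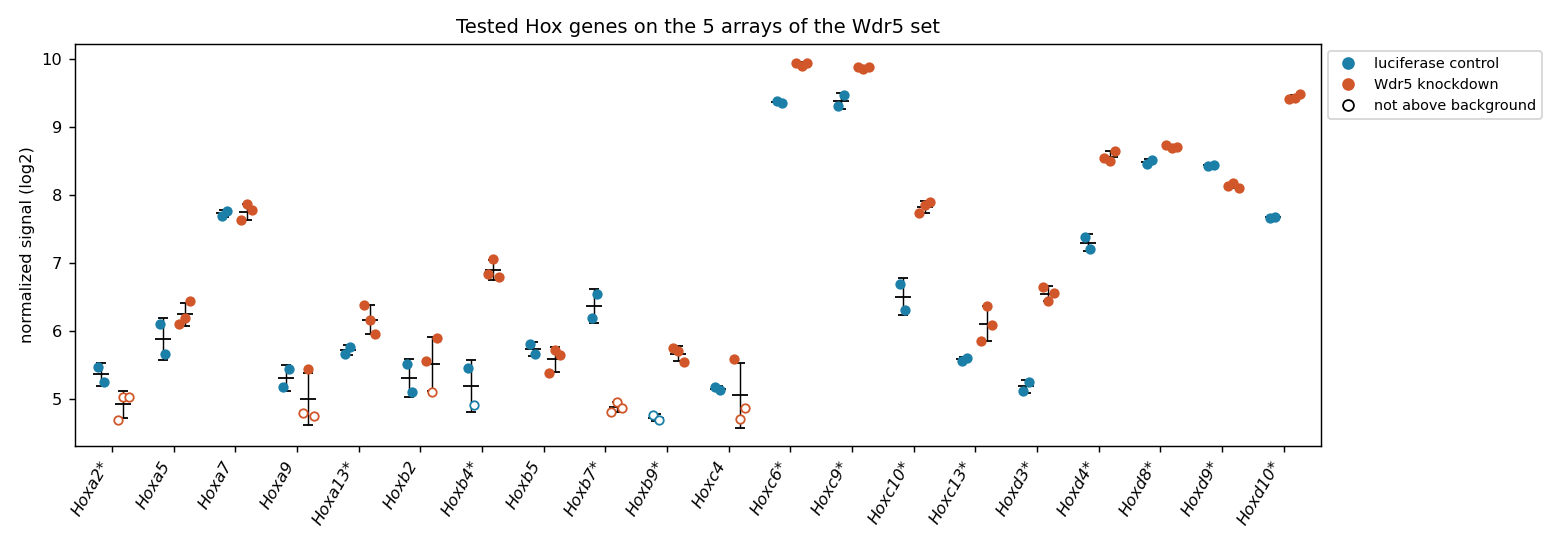
Normalized log2 signal (vertical axis) of 20 of the 21 tested Hox genes on each array of the Wdr5 set, with luciferase control arrays in blue and Wdr5 knockdown arrays in orange. Open points were not above background, bars give mean ± SD over 2 or 3 arrays, and asterisks mark an adjusted p under 0.05; levels of different genes come from different probes and are not comparable. The 3 knockdown points of Hoxd10 lie between 9.41 and 9.48, above both controls at 7.66 and 7.67, and those of Hoxb7 lie below their controls.

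In HoxC, Hoxc6, which acts in the forelimb motor neurons and the chest region, had log2 values of 9.38 and 9.34 on the luciferase arrays, against 9.94, 9.89 and 9.93 on the Wdr5 knockdown arrays, a log2 fold change of 0.56 ± 0.07 (limma adjusted p = 0.000583). Hoxc9, which specifies thoracic motor neurons, had 9.30 and 9.46 against 9.88, 9.84 and 9.88, a log2 fold change of 0.49 ± 0.08 (limma adjusted p = 0.00211). The intensities of Hoxc6 were higher on every knockdown array, whereas those of Hoxc9 overlapped, at 620.2 and 813 against 939.7, 836 and 810.5. Hoxc10, a gene of the lumbar region and hindlimb, had log2 values of 6.69 and 6.31 against 7.72, 7.85 and 7.89, a log2 fold change of 1.32 ± 0.13 (limma adjusted p = 0.000298). A second Hoxc10 probe, also above background on all 5 arrays, differed by 0.52, so the size of the rise depends on the probe. Hoxc13, which controls hair and nail keratins, had 5.56 and 5.60 against 5.85, 6.37 and 6.09, a log2 fold change of 0.52 ± 0.15 (limma adjusted p = 0.0238). Hoxc4 did not pass the test (-0.10 ± 0.26).

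In HoxA, Hoxa13, a gene of the hand, foot and genital tract, had log2 values of 5.66 and 5.76 on the luciferase arrays, against 6.38, 6.15 and 5.95 on the Wdr5 knockdown arrays, a log2 fold change of 0.45 ± 0.13 (limma adjusted p = 0.0251). A second Hoxa13 probe, above background on 3 arrays, differed by 0.06. Hoxa2, which patterns the second pharyngeal arch, had log2 values of 5.47 and 5.24 on the luciferase arrays, against 4.69, 5.03 and 5.03 on the knockdown arrays, none of them above background, and was at least 1.16-fold lower (limma adjusted p = 0.0309). Hoxa5, Hoxa7 and Hoxa9 did not pass the test, with log2 fold changes of 0.36 ± 0.16, 0.03 ± 0.09 and -0.31 ± 0.23.

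On the normalized scale the arrays of the 2 groups did not overlap for 15 of the 21 tested Hox genes, the same 15 that were called, while 79.1% of all tested genes did not overlap, 43.9% with the knockdown arrays higher and 35.2% with them lower. On raw intensities, 7 of the 12 rising genes were higher on every knockdown array, and 5 overlapped, among them Hoxa13, Hoxc9, Hoxc13 and Hoxd8. All 3 falling genes were lower on every knockdown array. The knockdown arrays were also dimmer, with mean intensities over all probes of 429, 400 and 375 against 448 and 518 on the luciferase arrays. The share of all genes with such an order of raw intensities is not given here. The count of falling genes rests on both luciferase arrays: without either of them 1 Hox gene was lower, since Hoxa2 and Hoxb7 were above background on the luciferase arrays alone and left the test. The authors' deposited table called 12 of the 53 Hox probes higher in this comparison and 2 lower, at an adjusted p under 0.05. These probes stood for 11 Hox genes higher and 2 lower. Of all 25697 probes, above background or not, 4756 (18.5%) were higher and 4656 (18.1%) lower. Among the genes tested here, the authors' values called 11 of 21 Hox genes higher and 2 lower. Over all 10119 tested genes they called 3778 higher and 3060 lower.

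Feeder fibroblast markers moved in the same direction as most called Hox genes of the Wdr5 comparison. Of 25 tested markers 21 rose and 2 fell (median log2 fold change 1.66). The summed intensity of the list went from between 21936 and 24935 on the luciferase arrays to between 64060 and 73440 on the Wdr5 knockdown arrays. The brightest markers weigh most in such a sum. The mean log2 value, which weighs the markers equally, went from between 7.48 and 7.51 to between 9.36 and 9.38. Lox (at least 29.4-fold), Cav1 (4.53 ± 0.19) and Tnc (3.79 ± 0.15) rose most among those named here, while Thy1 (-0.44 ± 0.09) and Pdgfra (-0.43 ± 0.10) fell, Pdgfra without a call when luciferase replicate 2 was left out. Col5a2, Col6a2, Lum, Fap, Postn and Prrx1 were above background on no array. ES cell markers went the other way, with 13 of 15 falling and a median of -0.96, among them Zfp42 (-2.80 ± 0.09) and Dppa3 (-2.45 ± 0.10). The part of either list in the Hox values was not tested.

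In the Oct4 knockdown 6 of the 12 tested Hox genes rose: Hoxb2, Hoxb4, Hoxb9, Hoxc9, Hoxc13 and Hoxd9. Over all tested genes 42.4% were called, 24.3% higher and 18.1% lower. No tested Hox gene was called lower by limma, 0 had an unadjusted p under 0.05 in that direction, and the authors' deposited table also held 0. The median log2 fold change was 0.51 over the tested Hox genes and -0.02 over all tested genes, and with no filter it was -0.01 over all 39 Hox genes. All 3 tested HoxB genes, 2 of 5 in HoxC and the 1 in HoxD rose, and the 3 tested HoxA genes did not pass. All 4 tested genes with paralogue numbers 9 to 13 rose, but 3 of them were above background on no GFP array and so could enter the test only by being high in the knockdown.

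Hoxc9 had log2 values of 5.60 and 5.64 on the GFP arrays, against 7.47 and 7.52 on the Oct4 knockdown arrays. It was above background on both knockdown arrays and on neither GFP array, and was at least 1.96-fold higher (limma adjusted p = 0.000918). Its intensities of 86.0 and 87.6 on the knockdown arrays exceeded those of 30.0 and 29.0 on the GFP arrays. Over all probes the knockdown arrays had the lower mean intensity but the higher median. Hoxd9 had log2 values of 5.35 and 5.45 against 6.74 and 6.37, and intensities of 1.2 and 5.0 against 49.4 and 33.2. It was also above background on the knockdown arrays alone, with a bound of at least 1.02-fold higher (limma adjusted p = 0.00581). Hoxb9 had 6.25 and 5.78 against 7.05 and 7.38, was above background on neither GFP array, and was at least 1.62-fold higher (limma adjusted p = 0.00939). Its intensities overlapped, at 88.6 and 45.5 on the GFP arrays against 62.7 and 78.7 on the knockdown arrays.

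The 3 other rising genes were above background on at least 1 GFP array. Hoxb4 had log2 values of 6.52 and 6.07 on the GFP arrays, the first of them above background, and 7.73 and 7.76 on the Oct4 knockdown arrays, a log2 fold change of 1.45 ± 0.19 (n = 2 and 2, limma adjusted p = 0.00370). Its intensities overlapped, at 115.0 and 78.2 against 105 on each knockdown array. Hoxc13 had log2 values of 6.85 and 6.74 against 7.37 and 7.64, a log2 fold change of 0.71 ± 0.16 (limma adjusted p = 0.0190). Hoxb2 had 6.44 and 6.47 against 7.13 and 6.91, a log2 fold change of 0.57 ± 0.15 (limma adjusted p = 0.0314), and was above background on 1 of the 2 GFP arrays. The intensities of Hoxc13, at 156 and 148 against 79.8 and 96.3, and of Hoxb2, at 107 and 120.2 against 66.4 and 52.9, were lower on the knockdown arrays. These 2 genes were therefore higher only relative to the rest of their arrays. Among the rising genes of this set, Hoxc9 and Hoxd9 alone had higher intensities on both knockdown arrays than on both GFP arrays.

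**Figure D3:**
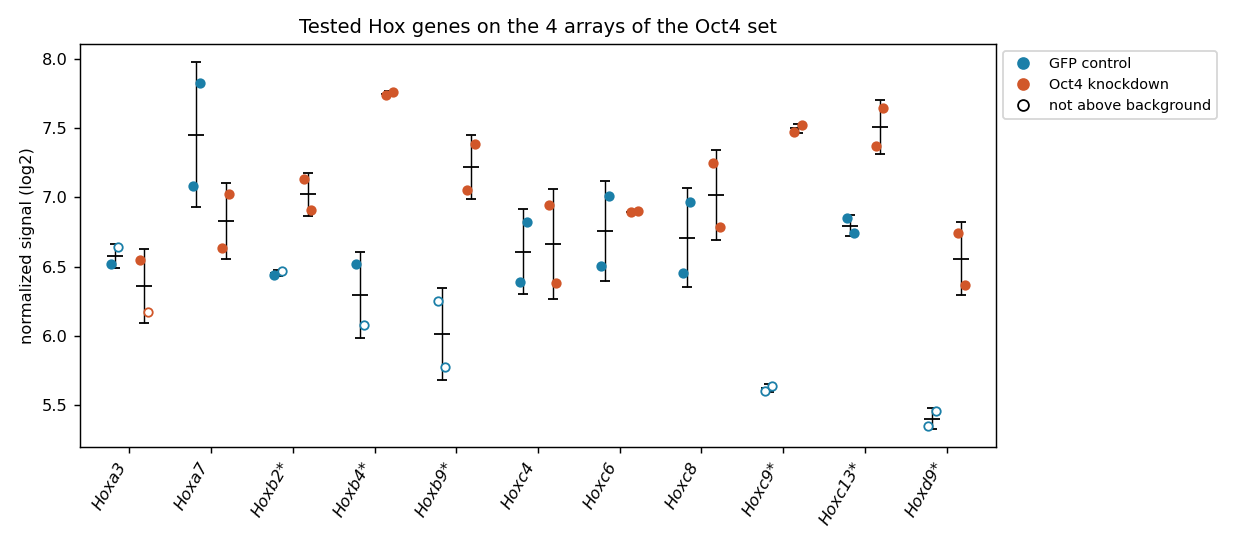
Normalized log2 signal (vertical axis) of 11 of the 12 tested Hox genes on each array of the Oct4 set, with GFP control arrays in blue and Oct4 knockdown arrays in orange. Open points were not above background, bars give mean ± SD over 2 arrays, and asterisks mark an adjusted p under 0.05. Hoxc9 lies at 7.47 and 7.52 in the knockdown above open control points at 5.60 and 5.64, while both groups of Hoxc4 and Hoxc6 overlap.

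The 6 tested Hox genes that did not pass included Hoxa3, a gene of the thymus and parathyroid (-0.22 ± 0.18), Hoxa7 (-0.62 ± 0.29), Hoxc4 (0.06 ± 0.25), Hoxc6 (0.14 ± 0.21) and Hoxc8, which acts in forelimb motor neurons (0.31 ± 0.25). On raw intensities all 6 were lower on every knockdown array than on either GFP array, and the knockdown arrays had lower mean intensities. The share of all genes in that order is not given here. A second Hoxa7 probe, above background on 1 array and not kept, differed by -1.12. By its reported probe, the groups of Hoxa7 did not overlap on the normalized scale. In all, the groups did not overlap for 8 of the 12 tested Hox genes, while 72.5% of all tested genes did not overlap, 38% with the knockdown arrays higher and 34.5% with them lower. The probes of Hoxc8 disagreed: a second probe, above background on the knockdown arrays alone, had intensities of 58.7 and 30.1 there and of -19.1 and -36.7 on the GFP arrays, a difference of 1.45 in log2 value. The authors' deposited table called 6 of the 53 Hox probes higher, in 6 genes, and 0 lower, at an adjusted p under 0.05. Of all 46643 probes, above background or not, 6.52% were higher and 5.34% lower. The 6 genes were Hoxb4, Hoxb9, Hoxc8 through its second probe, Hoxc9, Hoxc13 and Hoxd9. In that authors' deposited table Hoxb2 had an adjusted p of 0.0660, in a range of 0.0210 to 0.830 over its alternatives.

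The Oct4 results rest on few arrays and on the scaling. Without either Oct4 knockdown array Hoxb4 alone kept its call. Hoxb9, Hoxc9 and Hoxd9, detected on the knockdown arrays alone, left the test. Hoxc13 and Hoxb2 stayed in it and lost their calls. Their log2 fold changes were 0.86 and 0.47 without Oct4 knockdown replicate 1, and 0.58 and 0.68 without replicate 2. The number of all genes called higher also dropped. Without GFP replicate 1, Hoxa7 was called lower (-0.88, limma adjusted p = 0.0138, in a range of 0.0138 to 0.473 over its alternatives). When arrays were scaled to a common median over all probes in place of quantiles, Hoxb4, Hoxc9 and Hoxd9 were higher and Hoxa7 lower (-1.03). Under that scaling 578 of all tested genes were higher and 2765 lower, against 2250 and 1680, the median of all tested genes moved to -0.53, and the Hox median stayed 0.53 above it.

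In the Oct4 set 11 of 17 tested feeder fibroblast markers rose (median log2 fold change 1.55), and 4 did without either Oct4 knockdown array. The summed intensity of the list, in which the brightest markers weigh most, was between 5369 and 8301 on the GFP arrays. It was between 43839 and 47508 on the Oct4 knockdown arrays. The mean log2 value went from between 6.92 and 7.08 to between 8.77 and 8.83. The named markers Acta2 (7.59 ± 0.35), Lgals1 (4.60 ± 0.16) and Ccn2 (2.69 ± 0.27) rose, and Tagln was at least 7.69-fold higher. The defining fibroblast collagens Col1a1, Col1a2 and Col3a1 were above background on no array, nor were Col6a1, Dcn, Lum, Fap, Pdgfrb, Thy1, Postn, Lox, Loxl1, Twist2 and S100a4. ES cell markers fell in 11 of 13 tested cases (median -1.75), counting the targeted Pou5f1, among them Sox2 (-2.42 ± 0.15) and Fbxo15 (-2.57 ± 0.20). The part of these lists in the Hox values was not tested.

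Of the 10 Hox genes tested in both comparisons, 4 were higher in both: Hoxb4, Hoxb9, Hoxc9 and Hoxc13. Of all 6170 genes tested in both, 15.3% were higher in both. Hoxb9 in both comparisons, and Hoxc9 in the Oct4 comparison, were above background on no control array and entered the test through the knockdown arrays alone. Hoxb4 had log2 fold changes of 1.71 ± 0.18 in the Wdr5 knockdown and 1.45 ± 0.19 in the Oct4 knockdown, and Hoxc13 had 0.52 ± 0.15 and 0.71 ± 0.16. Hoxc9 differed by 0.49 ± 0.08 in the Wdr5 knockdown, where it was above background on every array, and by at least 1.96-fold in the Oct4 knockdown, where the GFP arrays did not detect it. Hoxd9 fell in the Wdr5 knockdown (-0.30 ± 0.07) and was at least 1.02-fold higher in the Oct4 knockdown, where the GFP arrays did not detect it. Hoxc6 passed the test in the Wdr5 comparison alone, Hoxb2 in the Oct4 comparison alone, and Hoxa7 and Hoxc4 in neither. The comparisons used separate platforms, cell lines and controls, and the difference between them was not tested for any gene.

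**Figure D4:**
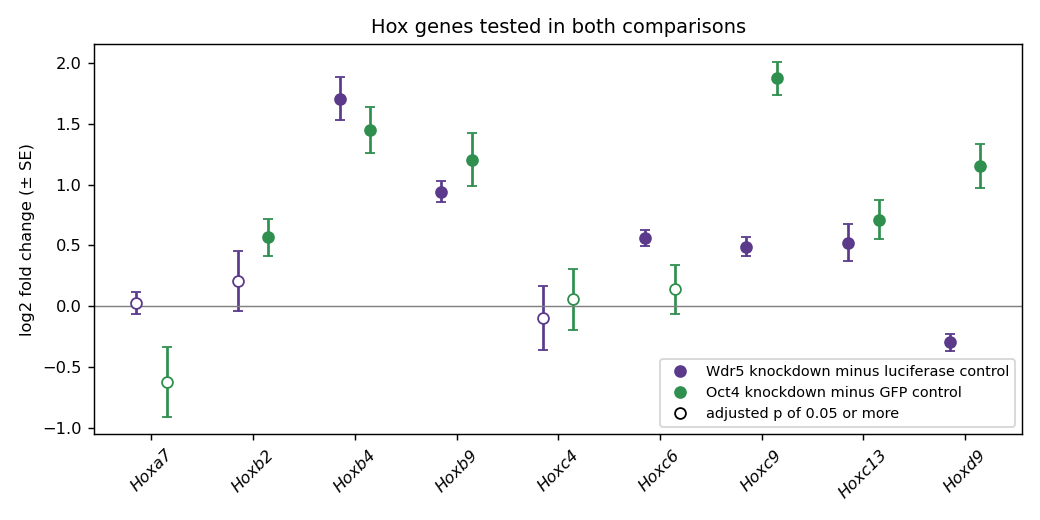
Log2 fold changes ± SE (vertical axis) of 9 of the 10 Hox genes tested in both comparisons, for the Wdr5 knockdown in purple (n = 3 against 2 arrays) and the Oct4 knockdown in green (n = 2 against 2). Filled points have an adjusted p under 0.05; fitted values of Hoxb9 in both comparisons and of Hoxc9 and Hoxd9 in the Oct4 comparison rest on control arrays that were not above background. Both filled points of Hoxb4, Hoxb9, Hoxc9 and Hoxc13 lie above 0, and those of Hoxd9 lie on opposite sides.

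Hox proteins bind DNA together with the homeodomain cofactors of the Pbx, Meis and Pknox families. In the Wdr5 knockdown 5 of these 9 genes rose and 1 fell (median log2 fold change 0.49). The rising genes included Pknox2 (2.24 ± 0.12), Meis2 (2.20 ± 0.07), Meis1 (2.04 ± 0.10) and Pbx2 (1.47 ± 0.07), and Pbx3 fell (-0.66 ± 0.15). For this list and those below, the shares over all tested genes were 38.2% higher and 30.5% lower in the Wdr5 comparison. In the Oct4 comparison they were 24.3% and 18.1%. The value of Pbx2 was 0.40 with its probes averaged. Without Wdr5 knockdown replicate 1 it was 0.21 and no longer called (limma adjusted p = 0.0793, the highest over its alternatives, which reach down to 6.63e-11). The reported probe varied little between arrays (SD 0.05 for luciferase, 0.03 for knockdown), so leaving 1 array out cannot give 0.21 with that probe. Pbx2 had 3 kept probes, and the probe of highest mean was chosen anew in each alternative. Pbx3 was no longer called without luciferase replicate 2, which left 0 genes lower, and without Wdr5 knockdown replicate 2 the list held 2. In the Oct4 knockdown 3 of the genes could be tested, and Pbx2 was called higher (0.63 ± 0.17), a call lost in 8 of 16 alternatives, among them those without GFP replicate 2 and without either Oct4 knockdown array. Without GFP replicate 1 the list held 2 higher.

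Cdx factors and retinoic acid switch Hox genes on in the embryo. Of 11 tested genes of this list 4 rose and 3 fell in the Wdr5 knockdown (median 0.00), near the 38.2% and 30.5% of all tested genes. Rarg, a retinoic acid receptor, rose by 1.16 ± 0.10, and the retinoic acid producing enzymes Aldh1a2, Aldh1a3 and Rdh10 were at least 1.47-fold, 1.41-fold and 1.47-fold higher. The partner receptor Rxra was at least 3.41-fold lower, the retinoic acid binding protein Crabp1 fell by 2.60 ± 0.10, and Cdx1 fell by 0.75 ± 0.18. In the Oct4 knockdown 4 of 5 rose and 1 fell (median 0.93): Cdx2 rose by 0.93 ± 0.20 and Rdh10 by 1.12 ± 0.14, the retinoic acid degrading enzyme Cyp26b1 was at least 3.96-fold higher, and Rxrb fell by 0.89 ± 0.16. Without Oct4 knockdown replicate 1 the Oct4 counts were 0 higher and 0 lower, and without replicate 2 they were 1 and 0. In the Wdr5 comparison 1 gene of the list was lower without luciferase replicate 2, where Cdx1 lost its call.

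Among Trithorax and Polycomb regulators of Hox genes, 8 of 27 rose and 12 fell in the Wdr5 knockdown (median -0.22), and 3 of 23 rose and 9 fell in the Oct4 knockdown (median -0.56). Wdr5 itself, the knocked-down gene, is 1 of the 12 and was also counted in the Oct4 set. Without Oct4 knockdown replicate 1 the Oct4 counts were 0 higher and 3 lower, and without replicate 2 they were 1 and 4. Ezh2, the enzyme of Polycomb repressive complex 2, fell in both, with log2 fold changes of -1.34 ± 0.09 in the Wdr5 knockdown and -3.24 ± 0.16 in the Oct4 knockdown, and its partner Mtf2 fell with -1.36 ± 0.08 and -1.23 ± 0.17. The subunits that join Wdr5 in the methyltransferase core were called lower in both. In the Oct4 set Dpy30 kept its call under every alternative, but Rbbp5 and Ash2l lost theirs without Oct4 knockdown replicate 1. Rbbp5 had log2 fold changes of -1.08 ± 0.07 in the Wdr5 knockdown and -0.56 ± 0.17 in the Oct4 knockdown (limma adjusted p = 0.0495), Dpy30 had -0.67 ± 0.07 and -1.45 ± 0.17, and Ash2l, chosen with its values seen, had -0.28 ± 0.07 and -0.76 ± 0.22 (limma adjusted p = 0.0376 in the Oct4 knockdown). Phc2, of Polycomb repressive complex 1, rose in both (1.09 ± 0.08 and 1.10 ± 0.14). In the Wdr5 knockdown Ctcf, which insulates domains within Hox clusters, rose by 0.92 ± 0.07 and the methyltransferase gene Kmt2b by 0.88 ± 0.07.

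Genes that flank the clusters were measured beside them. In the Wdr5 knockdown 3 of 12 rose and 6 fell (median -0.57). Evx1, a homeobox gene at the Hoxa13 end of HoxA, rose by 0.64 ± 0.07, while Hibadh on that side fell by 1.43 ± 0.07. Near HoxC, Calcoco1 rose by 1.91 ± 0.10 and Hnrnpa1 fell by 2.01 ± 0.06, and near HoxD Nfe2l2 fell by 1.88 ± 0.11. In the Oct4 knockdown 2 of 7 flanking genes fell, Hibadh (-0.65 ± 0.15) and Atp5g1 near HoxB (-0.54 ± 0.14), and the median was -0.43. Without either Oct4 knockdown array 0 were lower, and without GFP replicate 1 the list held 1 higher.

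Homeobox genes outside the clusters served as a further comparison. In the Wdr5 knockdown 11 of 21 rose and 4 fell (median 0.24), beside 12 of 21 and 3 for the clustered genes. Mixl1, a primitive streak gene, rose by 1.79 ± 0.11 and Gsc by 1.59 ± 0.08, while Otx2, a forebrain gene, fell by 0.92 ± 0.08. In the Oct4 knockdown 5 of 13 rose and 2 fell (median 0.08), beside 6 of 12 clustered genes that rose. Dlx2 was at least 2.48-fold higher, Gbx2 fell by 2.19 ± 0.17, and Otx2 was at least 3.50-fold lower. Without luciferase replicate 1 the Wdr5 counts were 7 higher and 2 lower, and 2 were lower without luciferase replicate 2 or Wdr5 knockdown replicate 3. Without either Oct4 knockdown array 0 were higher in the Oct4 comparison, and without GFP replicate 1 the list held 1 lower.

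The plot of alternatives shows how far the tested Hox genes moved when the processing changed or 1 array was left out. The calls of Hoxa2, Hoxa13, Hoxc13 and Hoxd8 in the Wdr5 comparison, and those of Hoxb2, Hoxb9 and Hoxc13 in the Oct4 comparison, ended when the normalization, the variance model or the table changed, or when 1 array was left out. Calls gained in 1 alternative included those of Hoxa5 without luciferase replicate 1, Hoxa9 without Wdr5 knockdown replicate 2, Hoxc4 without Wdr5 knockdown replicate 1 and Hoxb5 with median scaling, the last 3 of them lower, and in the Oct4 comparison that of Hoxc8 with its probes averaged (0.88). No called Hox gene changed direction under any alternative run.

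**Figure D5:**
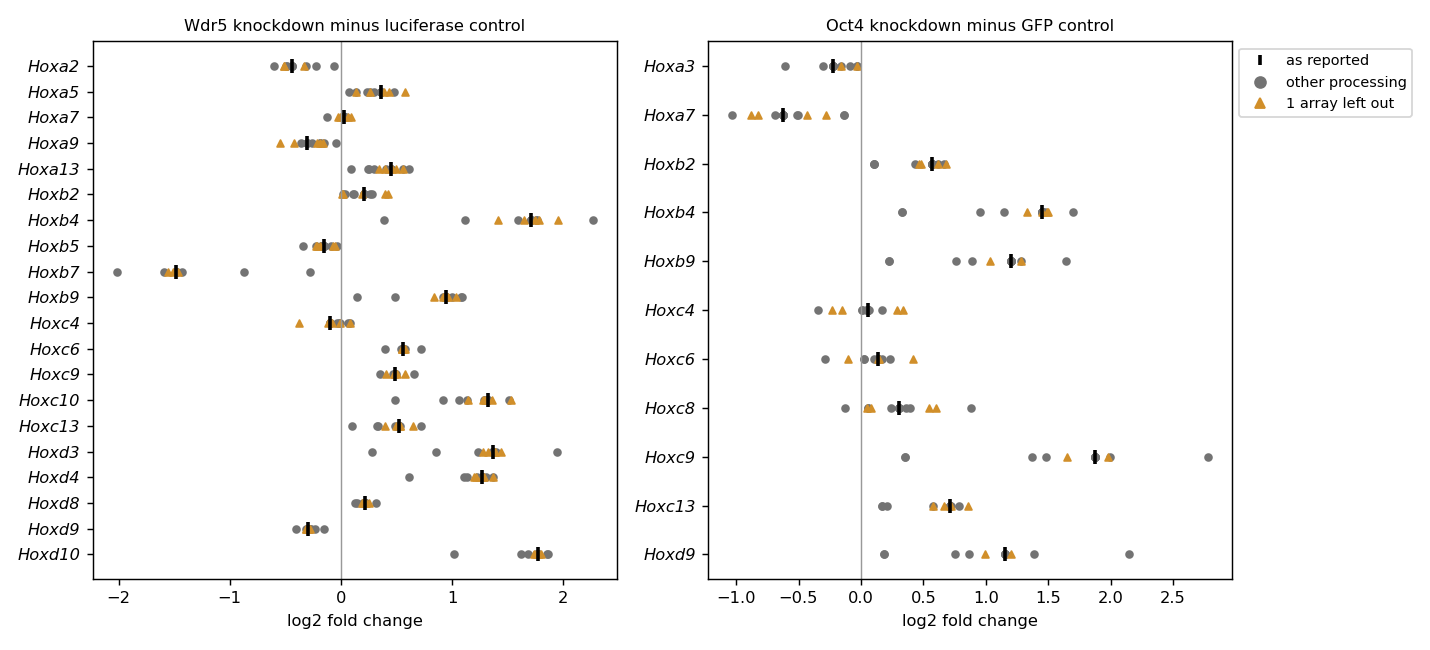
Log2 fold change (horizontal axis) of 20 of the 21 Hox genes tested in the Wdr5 comparison (left) and 11 of the 12 tested in the Oct4 comparison (right), as reported (black bar), under other processing, the authors' deposited table included (grey points), and with 1 array left out (orange triangles). All values of Hoxd10 lie between 1.01 and 1.86 and those of Hoxb7 between -2.02 and -0.28, whereas those of Hoxc4 fall on both sides of 0 in both panels.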

How the data were processed

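The authors deposited probe intensity values, on a linear scale and not normalized between arrays per the file headers, with a detection score per probe and array, a fraction near 1 for bright probes. They also deposited log2 values per array and, per the file headers, log2 fold changes with p-values, used here as an alternative and as the authors' deposited table. The submitters' processing notes name limma without a role. Scanner software and normalization were not given in the sources used here.

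Here the intensities of each set went through neqc of limma 3.58.1 (R 4.3.3), which estimates background from the detection scores, adds an offset (16), applies quantile normalization and returns log2 values, so fold changes are relative to the other genes and dim genes are pulled towards 0. Probes with a score above 0.95 on at least 2 arrays were kept, and the kept probe with the highest mean stood for its gene. Each set had its own lmFit and eBayes fit on group alone, two-sided, with Benjamini-Hochberg adjustment over all genes and a threshold of 0.05. The steps were tested on simulated data. A gene not above background in any array of a group gets a bound: the brighter group's mean against the mean, per array, of the higher of the lowest detected signal and its own. Promoter windows came from RefSeq, build GRCm38.p6.

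Every tested Hox gene could be named; 1 Hox gene and 2 genes of the other lists are included in the counts but not reported singly here. Of each other list, the called genes of largest change, at most 4 per direction and comparison, could be named. The Hox genes and the 7 lists (Pbx and Meis cofactors, Cdx and retinoic acid pathway, Trithorax and Polycomb regulators, cluster neighbours, other homeobox genes, feeder fibroblast and ES cell markers) were chosen with earlier results of these data known. Alternatives covered offset, background correction, scaling, filter, probe choice, variance model, the replicate block, arrays left out and the authors' values. No arrays held identical values. Samples with the same replicate number did not deviate together, so the numbers were not used as pairs.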

Additional observations from a re-analysis of the deposited data

Results flagged for a closer look

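Hoxd9 was picked out because its arrays moved in opposite directions under the knockdowns. Its log2 fold change was -0.30 in the Wdr5 knockdown, where all 3 knockdown arrays were below both luciferase arrays. In the Oct4 knockdown the fitted value was 1.15, and both knockdown arrays were above both GFP arrays. The GFP arrays were not above background, so the difference there is a bound of at least 1.02-fold higher. Hoxd9 entered that test through the knockdown arrays alone. The comparisons used separate platforms and cell lines, and the difference between them was not tested.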

How the results depend on the processing

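Of the 15 Hox genes called in the Wdr5 comparison, 10 kept direction and call under each alternative run, among them Hoxb4, Hoxb7, Hoxb9, Hoxc6, Hoxc9, Hoxc10, Hoxd3, Hoxd4 and Hoxd10 (Hoxb7 left the test without either luciferase array). Hoxa2, Hoxa13, Hoxc13 and Hoxd8 lost the call in some, and Hoxd9 under the replicate block alone (adjusted p = 0.0507, limma). Of the 6 called in the Oct4 comparison, Hoxb4, Hoxc9 and Hoxd9 kept it wherever they could be tested. With 1 array left out, 9 to 11 Hox genes were higher and 1 to 4 lower in the Wdr5 comparison, and 1 to 6 higher and 0 to 1 lower in the Oct4 comparison, with 387 to 2616 of all genes higher and 418 to 1911 lower. With median scaling, Oct4 Hox genes were 3 higher and 1 lower, and all genes 578 higher and 2765 lower. The replicate block gave 11 Hox genes higher and 1 lower in the Wdr5 comparison, beside 3593 higher and 2839 lower of all genes. For Oct4 it gave 5 and 0, beside 1967 and 1338 of all genes. Correlations of same-numbered deviations were -0.03 and -0.01 for Wdr5, and -0.36 for Oct4. Crossed pairing in the Oct4 set, chosen after seeing the data, gave 7 Hox genes higher and 0 lower, with 2572 and 2147 over all genes. Among Hox genes, signs turned only where there was no call. In the Wdr5 comparison Hoxc4 was 0.085 with no background correction and 0.066 with median scaling of the kept probes alone (chosen after seeing the data), Hoxa7 was -0.12 with median scaling, and with 1 array left out Hoxc4 ranged from -0.38 to 0.080 and Hoxa7 from -0.025 to 0.091. In the Oct4 comparison median scaling gave Hoxc4 -0.35, Hoxc6 -0.29 and Hoxc8 -0.13, and with 1 array left out Hoxc4 ranged from -0.23 to 0.34 and Hoxc6 from -0.10 to 0.42. Among the other named genes, Tgif1 was 0.0024 in the Wdr5 comparison when kept probes alone set the median, and Men1 -0.016 and Cbx7 -0.20 in the Oct4 comparison with median scaling. Genes detected in 1 group alone leave the test when its arrays are left out; other causes were not tested. At a score above 0.99 the GFP arrays detected 3 and 2 Hox genes and the first Oct4 knockdown array 7. With 300 bases, TGATTTAT was in 0.977% of all promoter windows. An alternative on the log2 values deposited for the Wdr5 set was not run, because their identifiers could not be matched to probes. Named genes outside the clusters kept direction and call in 1056 of 1121 values and lost the call in 62. Without Oct4 knockdown replicate 1, the Oct4 calls of Ash2l, Atp5g1, Cbx7, Cdx2, Hibadh, Men1, Mtf2, Pbx2, Phc2, Rbbp5, Rdh10, Rxrb and Wdr5 were lost. Low signal left 16 of 39 Hox genes tested in neither comparison.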
